A study of Homo sapiens with 18 samples.

Results

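The genes described here are ATF4, CHOP (gene symbol DDIT3) and 8 transcription factors and effectors that act with them in the integrated stress response, namely ATF3, ATF5, CEBPB, CEBPG, TRIB3, CHAC1, NUPR1 and SESN2. They were taken by symbol from a table of read counts, in which 10 of 28266 gene rows belonged to them, and all 10 passed the filter on low counts that kept 14341 genes. The table came from bulk poly(A) RNA sequencing of IMR90 ER:RAS cells, human lung fibroblasts that carry a RAS oncoprotein fused to an oestrogen receptor domain, so that 4-hydroxytamoxifen (4-OHT) switches the oncoprotein on. Control cells received DMSO and senescent cells received 100 nM 4-OHT, and after 7 days both were given DMSO, IMP1088 at 300 nM or DDD86481 at 1.5 µM for 3 days and collected on day 10. Both compounds inhibit N-myristoyltransferases (NMT), the enzymes that attach the fatty acid myristate to the first glycine of many proteins. Each of the 6 groups had 3 libraries. All cells came from this 1 engineered line, all carried the fusion protein, and only the senescent groups received 4-OHT, so that effects of 4-OHT and of RAS cannot be told apart.

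In the integrated stress response, kinases that sense misfolded proteins, lack of amino acids, viral RNA or lack of haem phosphorylate the translation factor eIF2α. General protein synthesis then falls, while mRNAs with upstream open reading frames, among them those of ATF4, CHOP and ATF5, are translated better. ATF4 is a basic leucine zipper (bZIP) factor that binds DNA in pairs with C/EBP proteins and switches on genes of amino acid supply, redox balance and, when stress lasts, CHOP and genes linked to cell death. Read counts follow mRNA, so the protein of these factors was not measured here.

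ATF4 lies on chromosome 22 (39520559-39522686, plus strand), DDIT3 on 12 (57516588-57520517, minus), ATF3 on 1 (212565407-212620777, plus) and ATF5 on 19 (49928906-49933935, plus). CEBPB lies on chromosome 20 (50190583-50192690, plus), CEBPG on 19 (33373709-33382686, plus) and TRIB3 on 20 (380760-397559, plus). CHAC1 lies on chromosome 15 (40953471-40956512, plus), NUPR1 on 16 (28532708-28538974, minus) and SESN2 on 1 (28259518-28282491, plus), all in GRCh38.p14. The reads of some members could be shared with a neighbour, since the sources used here describe a directional library kit and a stranded alignment but give no strand setting for the counting. On the opposite strand MARS1 covered 27.2% of the exonic bases of DDIT3, NUP62 covered 19.5% of those of ATF5 and CEBPB-AS1 covered 12.6% of those of CEBPB. A lncRNA gene with no symbol covered 16.5% of the exonic bases of NUPR1 on the same strand, and ATF4 has 4 processed pseudogenes, none of which had a row in the table.

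The promoters of members that behaved differently are shown first. RefSeq start sites on GRCh38.p14 gave 18 windows for 9 of the 10 members, each with 250 bases before and 50 bases after a start. NUPR1 had no entry. Both strands were searched for TGATGNAA, the core of the C/EBP-ATF response element that ATF4 binds with its partners, which stood in 3.62% of all 35116 windows. Also searched were TGACGTCA, the cAMP response element (1.85% of windows), TGACGTGG, an XBP1 and ATF6 element (0.729%), the endoplasmic reticulum stress element (0.0769%) and TGANTCA, the AP-1 site (7.71%). None of these motifs overlapped another in the windows printed below, where capitals mark every match and the sequence runs 5′ to 3′ along the gene.

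CHAC1 (chr15:40953221-40953520, plus strand) holds the response element core on the opposite strand, 209 bases before the start. CHAC1 rose in senescence and was not called higher with either inhibitor.
CHAC1: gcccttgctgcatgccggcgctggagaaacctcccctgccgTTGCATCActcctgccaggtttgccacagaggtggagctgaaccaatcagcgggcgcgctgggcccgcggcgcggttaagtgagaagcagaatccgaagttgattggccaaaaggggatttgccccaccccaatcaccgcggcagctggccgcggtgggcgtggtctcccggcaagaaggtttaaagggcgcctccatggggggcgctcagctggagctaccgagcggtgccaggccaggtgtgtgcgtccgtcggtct

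ATF3 (chr1:212565157-212565456, plus strand) holds the core 191 bases before its first start, and CEBPG (chr19:33373863-33374162, plus strand) 42 bases before its second. ATF3 was called higher with either inhibitor in senescent cells, whereas CEBPG moved little.
ATF3: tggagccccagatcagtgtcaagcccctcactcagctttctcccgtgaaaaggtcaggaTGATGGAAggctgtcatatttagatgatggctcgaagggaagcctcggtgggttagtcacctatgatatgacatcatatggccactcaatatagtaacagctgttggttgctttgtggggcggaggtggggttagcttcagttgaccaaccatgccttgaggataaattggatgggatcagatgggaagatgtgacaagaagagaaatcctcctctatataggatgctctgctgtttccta
CEBPG: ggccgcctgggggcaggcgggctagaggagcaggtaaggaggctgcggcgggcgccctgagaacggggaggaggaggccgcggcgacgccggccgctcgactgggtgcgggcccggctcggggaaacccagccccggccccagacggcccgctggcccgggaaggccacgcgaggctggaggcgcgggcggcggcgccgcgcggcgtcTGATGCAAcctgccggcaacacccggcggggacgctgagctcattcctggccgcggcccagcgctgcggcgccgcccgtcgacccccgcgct

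DDIT3 (chr12:57520465-57520764, minus strand) holds an AP-1 site 241 bases before the start and TRIB3 (chr20:381045-381344, plus strand) holds no match. These genes rose most of the 10 with both inhibitors in control cells.
DDIT3: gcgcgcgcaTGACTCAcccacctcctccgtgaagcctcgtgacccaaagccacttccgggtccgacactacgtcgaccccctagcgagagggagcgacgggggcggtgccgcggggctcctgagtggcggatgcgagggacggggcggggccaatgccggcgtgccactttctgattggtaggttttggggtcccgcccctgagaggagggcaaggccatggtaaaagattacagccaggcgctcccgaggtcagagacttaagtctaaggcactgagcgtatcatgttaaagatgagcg
TRIB3: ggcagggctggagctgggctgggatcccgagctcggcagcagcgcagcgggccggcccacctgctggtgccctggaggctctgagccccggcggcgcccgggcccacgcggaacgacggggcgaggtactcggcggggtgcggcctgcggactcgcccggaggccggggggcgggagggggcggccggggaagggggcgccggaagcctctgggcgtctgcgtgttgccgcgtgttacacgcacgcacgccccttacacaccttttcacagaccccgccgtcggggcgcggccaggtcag

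Of the 9 members with an entry, 3 held the response element core and 2 held an AP-1 site, the second being ATF5 (188 bases before the start). The other 4, ATF4, CEBPB, TRIB3 and SESN2, held none of the motifs, which says only that these letters are not in these windows. By window, the unit of the shares given above, 3 of 18 held the core and 3 of 18 held an AP-1 site. Of the latter, 2 were DDIT3 windows that overlap and hold the same site.

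Libraries held 16143716 to 23189950 counts, and the upper limit that a count of 0 leaves, set at 3 counts and called the floor, came to between 0.121 and 0.187 CPM (counts scaled to a shared library size). Levels below are CPM on library sizes scaled by the trimmed mean of M-values (TMM), given in replicate order, and are compared only within a gene. Every library of every member was above the floor, and reads carried no molecular identifiers, so that floors cover counting error only. All 12 fibroblast markers had reads, with a summed level of 27792 to 40753 CPM in control and 15571 to 23176 CPM in senescent libraries. Summed immune markers ran from 15.2 to 24.2 CPM in control and from 91.9 to 165 CPM in senescent libraries, with CD3E at or under the floor in every library. Endothelial markers ran from 1.21 to 3.98 and from 11.8 to 34.1 CPM, epithelial markers from 7.11 to 41.3 and from 10.7 to 16.3 CPM (KRT5 and SFTPC at or under the floor), and smooth muscle markers from 30.1 to 115 and from 2.13 to 10.3 CPM. The part of these markers in the differences between states was not tested. In bulk RNA, fewer cells that express a gene and less RNA per cell cannot be told apart.

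Replicate 2 of the DDD86481-treated control cells stood apart for these genes. It was the lowest of its group for 8 of the 10 members, while replicate 1 was the highest for 9, and its total of 16143716 counts was the lowest of all libraries. Replicate 1 of the senescent cells with DMSO was the lowest of its group for 7 members and replicate 2 the highest for 8. Replicate 3 of the control cells with DMSO was the highest of its group for 7 members. The chi-square per gene between it and replicate 1 was 98.8, the largest between libraries of a group, and that with replicate 2 came next. Pairs in the other groups reached up to 25.5. These DMSO control cells are the baseline of senescence with DMSO, of both inhibitors in control cells and of both interactions. Calls of members that were lost or gained without one of these libraries are given beside the result.

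A gene was called when its adjusted p (edgeR's quasi-likelihood test, Benjamini-Hochberg adjustment over the 14341 genes) was under 0.05, and fold changes are log2 values ± SE. Senescent cells with DMSO had 5 members higher and 2 lower than control cells with DMSO, where 32.5% of all genes tested were called higher and 36% lower. With IMP1088 in both states, 7 members were higher and 1 lower in senescent cells (36.2% and 37.9% of all genes), and with DDD86481 6 were higher and 1 lower (36.1% and 37.9%). The median log2 fold change of the 10 members was 0.48, 0.45 and 0.38 in these comparisons, against -0.05, -0.03 and -0.04 over all genes tested. In senescence with DMSO, 6 members were higher without replicate 1 of the senescent DMSO cells and 4 without replicate 2. Without replicate 2 of the DDD86481-treated control cells, 4 members were higher and 1 lower in senescence with DDD86481, and without replicate 1 of them 7 and 1.

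IMP1088 gave 4 members higher and 0 lower in control cells (16.3% and 17.4% of all genes tested), and DDD86481 gave 5 and 0 (17.8% and 18.7%). In senescent cells IMP1088 gave 6 members higher and 0 lower (20.6% and 23.9%), and DDD86481 also gave 6 and 0 (20.1% and 23.1%). Median log2 fold changes of the members were 0.41 and 0.39 in control cells, against 0.00 over all genes in both, and 0.55 and 0.70 in senescent cells, against -0.04 in both. The 2 inhibitors shared their DMSO libraries within each state and were used at different doses, so their values stand side by side with no test between them. Without replicate 1 of the senescent DMSO cells, IMP1088 gave 4 members higher in senescent cells, and without replicate 2 both inhibitors gave 7. Without replicate 1 of the DDD86481-treated control cells, DDD86481 gave 3 members higher in control cells.

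**Figure D1:**
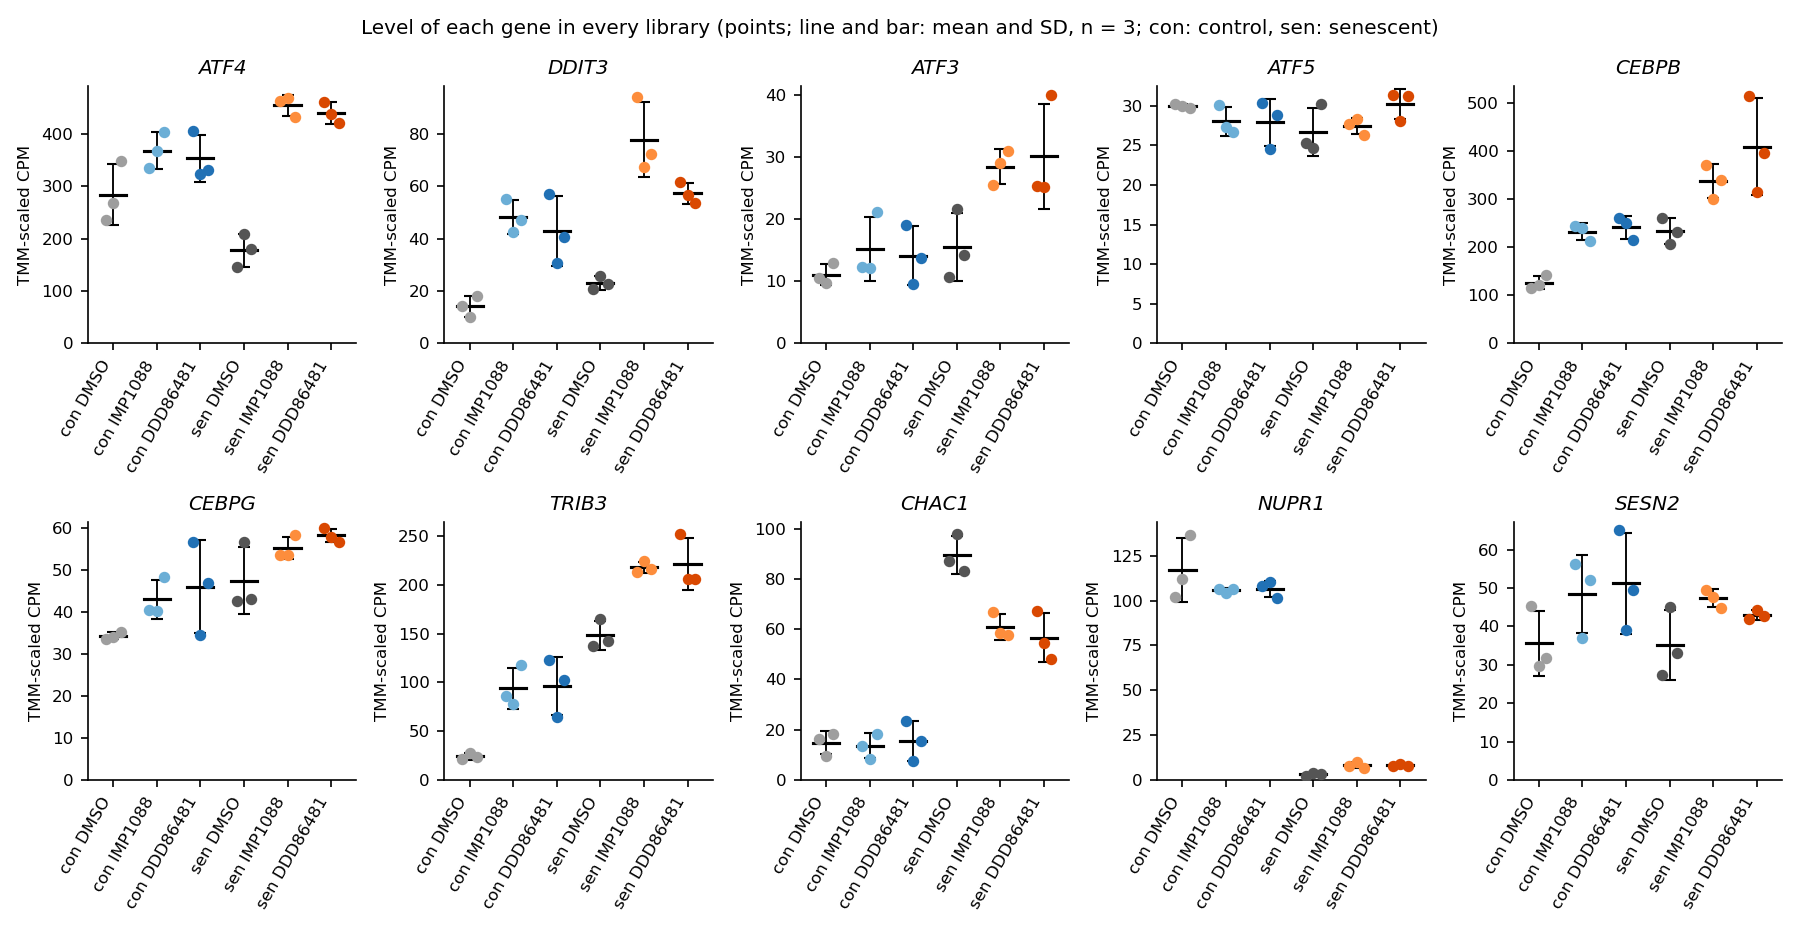
Level of each of the 10 genes in CPM on a linear axis from 0, for the 3 libraries of each group (points), with the group mean (line) and SD (bar). NUPR1 lay at 102 CPM or more in all control libraries and at 10.1 CPM or less in all senescent ones, CHAC1 at 23.5 CPM or less in control and at 48.1 CPM or more in senescent libraries, and ATF4 was lowest in the senescent cells with DMSO.

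ATF4, the factor at the head of the pathway, was lower in senescent than in control cells with DMSO and was raised above both by the inhibitors in senescent cells. Control cells with DMSO had 235, 267 and 348 CPM and senescent cells with DMSO had 146, 208 and 179 CPM, so that the groups did not overlap (log2 fold change -0.67 ± 0.14, adjusted p = 0.000201). With IMP1088 the senescent libraries stood at 463, 468 and 431 CPM, all above the 3 DMSO libraries (1.35 ± 0.14, adjusted p = 1.7e-07). Those with DDD86481 stood at 460, 437 and 419 CPM (1.30 ± 0.14, adjusted p = 3.04e-07). All 6 values lay above every other library in the study.

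In control cells the change in ATF4 was smaller. IMP1088 gave 334, 366 and 403 CPM (0.38 ± 0.14, adjusted p = 0.0382), a range that overlapped that of DMSO. This call was lost without replicate 1 or 2 of the DMSO control cells (adjusted p = 0.136 and 0.0996) and without replicate 2 or 3 of the IMP1088-treated control cells (0.0669 and 0.119). DDD86481 gave 405, 323 and 331 CPM and was not called (0.32 ± 0.14, adjusted p = 0.073), except without replicate 3 of the DMSO control cells (0.49, adjusted p = 0.00416). Senescent cells with IMP1088 were above control cells with IMP1088 by 0.30 ± 0.14 (adjusted p = 0.0484), and those with DDD86481 by 0.31 ± 0.14 (adjusted p = 0.0422), with no overlap of ranges. Leaving out 1 library ended the first call in 5 of 6 fits, all but that without replicate 3 of the IMP1088-treated control cells (adjusted p up to 0.16), and the second in 4 of 6, all but those without replicate 1 of the control or replicate 3 of the senescent DDD86481-treated cells (up to 0.125). Upper quartile scaling also ended all 3 calls that rest on ATF4 differences of this size (adjusted p = 0.0778, 0.189 and 0.173).

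DDIT3 encodes CHOP, a bZIP factor induced by ATF4 that is linked to death of cells under lasting endoplasmic reticulum stress. Both inhibitors raised it in both states. Control cells with DMSO had 14.3, 10.1 and 18.1 CPM, those with IMP1088 had 55.2, 42.7 and 47 CPM, and those with DDD86481 had 57.2, 30.6 and 40.8 CPM. The inhibitor groups lay wholly above DMSO (1.78 ± 0.20, adjusted p = 1.96e-06, and 1.61 ± 0.20, adjusted p = 6.59e-06). Without replicate 2 of the DDD86481-treated control cells, its lowest library, the fold change was 1.80 ± 0.20 (adjusted p = 2.29e-06).

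Senescent cells with DMSO had 20.7, 25.8 and 22.7 CPM of DDIT3, all above the control libraries with DMSO (0.71 ± 0.21, adjusted p = 0.00467). IMP1088 brought the senescent libraries to 94.1, 67.3 and 72.2 CPM (1.75 ± 0.20, adjusted p = 8.1e-07) and DDD86481 brought them to 61.7, 56.6 and 53.8 CPM (1.31 ± 0.20, adjusted p = 2.56e-05). Again no inhibitor library overlapped DMSO. Among the 14341 genes the rise of DDIT3 ranked 109th with IMP1088 and 147th with DDD86481 in control cells, and 300th and 497th in senescent cells. Senescent cells exceeded control cells by 0.69 ± 0.19 with IMP1088 (adjusted p = 0.00318), whereas the difference with DDD86481 of 0.42 ± 0.19 did not pass the threshold (adjusted p = 0.0576). That difference for DDIT3 depended on the processing. It passed in 5 of 6 fits with another scaling, filter, tool or design (adjusted p from 0.00628 to 0.14, upper quartile scaling giving the highest). It was 0.68 without replicate 1 of the DDD86481-treated control cells (adjusted p = 0.00398) and 0.24 without replicate 2 of them (adjusted p = 0.278).

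MARS1, the methionyl-tRNA synthetase gene on the other strand of DDIT3, was not called with either inhibitor in either state (0.17 ± 0.11 and 0.23 ± 0.11 in control cells, 0.04 ± 0.11 and 0.06 ± 0.11 in senescent cells). In senescent against control cells with DMSO it was called higher (0.79 ± 0.11, adjusted p = 1.35e-06), beside the 0.71 of DDIT3. How far shared reads entered that value was not tested.

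**Figure D2:**
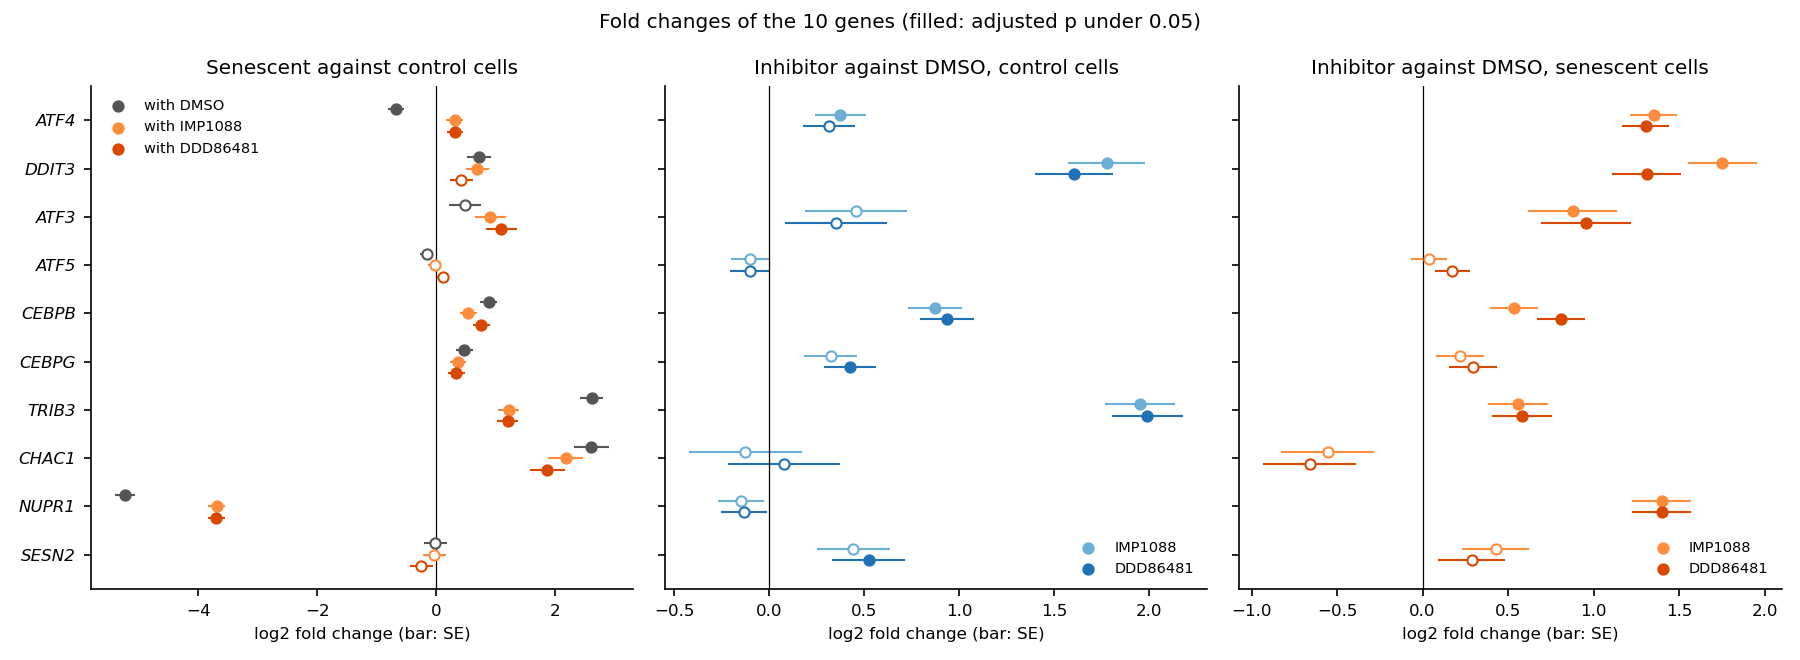
Log2 fold changes of the 10 genes with SE (bars) for senescent against control cells at each treatment (left) and for each inhibitor against DMSO in control (middle) and senescent cells (right), filled where the adjusted p was under 0.05. DDIT3, CEBPB and TRIB3 were called higher with both inhibitors in both states, and ATF4, ATF3 and NUPR1 with both inhibitors in senescent cells.

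ATF3 and ATF5 are bZIP factors that act beside ATF4: ATF3 is an immediate stress factor that represses or activates by its partner, and ATF5 governs mitochondrial stress genes among others. ATF3 had 10.5, 9.7 and 13 CPM in control cells with DMSO and 10.7, 21.5 and 14.2 CPM in senescent cells with DMSO, which overlapped (0.49 ± 0.27, adjusted p = 0.114). Without replicate 1 of the senescent DMSO cells, its lowest library, senescence was called higher (0.69, adjusted p = 0.0381). IMP1088 gave 25.4, 29 and 30.9 CPM in senescent cells (0.88 ± 0.26, adjusted p = 0.00977) and DDD86481 gave 25.3, 25.1 and 39.9 CPM (0.96 ± 0.26, adjusted p = 0.00577). Both groups lay above the DMSO libraries. The IMP1088 call was lost without replicate 1 of the senescent DMSO cells (0.67, adjusted p = 0.0648).

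In control cells ATF3 stood at 12.3, 12.1 and 21.2 CPM with IMP1088 and at 19, 9.58 and 13.7 CPM with DDD86481, and neither change was called (0.46 ± 0.27, adjusted p = 0.194, and 0.35 ± 0.27, adjusted p = 0.317). Senescent cells exceeded control cells by 0.91 ± 0.26 with IMP1088 (adjusted p = 0.00383) and by 1.09 ± 0.26 with DDD86481 (adjusted p = 0.00091).

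ATF5 had the flattest level of the 10 members. Its 18 libraries ran from 24.6 to 31.3 CPM, and the highest group mean, 30.2 ± 1.86 CPM (SD, n = 3) in senescent cells with DDD86481, was 1.13 times the lowest, 26.7 ± 3.04 CPM in senescent cells with DMSO. It was called in none of the 7 comparisons between groups. Its largest change was 0.17 ± 0.10 with DDD86481 in senescent cells (adjusted p = 0.187). Senescence with DMSO gave -0.16 ± 0.10 (adjusted p = 0.165), which passed under upper quartile scaling (-0.32, adjusted p = 0.00726) and without replicate 3 of the senescent DMSO cells (-0.26, adjusted p = 0.045). NUP62, a nuclear pore gene that overlaps ATF5, was called lower in that comparison (-0.28 ± 0.09, adjusted p = 0.0121).

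CEBPB and CEBPG encode C/EBPβ and C/EBPγ, bZIP partners of ATF4 and CHOP; C/EBPβ also drives inflammatory and secretory genes in senescent cells. CEBPB rose with senescence and with both inhibitors in both states. Control cells with DMSO had 116, 123 and 142 CPM, and senescent cells with DMSO had 261, 207 and 233 CPM (0.88 ± 0.14, adjusted p = 1.53e-05). In control cells IMP1088 gave 244, 241 and 213 CPM (0.88 ± 0.14, adjusted p = 8.99e-05) and DDD86481 gave 261, 251 and 215 CPM (0.94 ± 0.14, adjusted p = 4.37e-05). These 3 groups overlapped one another and lay wholly above control cells with DMSO.

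In senescent cells IMP1088 brought CEBPB to 371, 302 and 341 CPM (0.53 ± 0.14, adjusted p = 0.00424) and DDD86481 to 516, 316 and 398 CPM (0.81 ± 0.14, adjusted p = 0.000108), all above DMSO. Senescent cells exceeded control cells by 0.54 ± 0.14 with IMP1088 (adjusted p = 0.00187) and by 0.76 ± 0.14 with DDD86481 (adjusted p = 7.18e-05). CEBPB-AS1, on the opposite strand of CEBPB, stood at 0.95 CPM in control and 1.92 CPM in senescent cells with DMSO (means), so that it was far less abundant than CEBPB.

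CEBPG moved less. It had 33.6, 34 and 35.2 CPM in control cells with DMSO and 42.5, 56.6 and 43.2 CPM in senescent cells with DMSO (0.47 ± 0.14, adjusted p = 0.00559), a call that was lost without replicate 2 of the latter (0.32, adjusted p = 0.0562). DDD86481 gave 56.7, 34.6 and 46.8 CPM in control cells (0.43 ± 0.14, adjusted p = 0.0214). Leaving out its replicate 1 or 3 ended that call (adjusted p = 0.17 and 0.054), and leaving out replicate 2, its lowest library, gave 0.59 ± 0.13 (adjusted p = 0.00154). IMP1088 gave 40.4, 40.3 and 48.2 CPM there (0.33 ± 0.14, adjusted p = 0.0768).

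Senescent libraries had 53.6, 53.7 and 58.4 CPM of CEBPG with IMP1088 (0.22 ± 0.14, adjusted p = 0.212) and 59.9, 57.9 and 56.7 CPM with DDD86481 (0.30 ± 0.14, adjusted p = 0.0923, or 0.44 and 0.0227 without replicate 2 of the senescent DMSO cells). Against control cells at the same treatment they were higher by 0.36 ± 0.14 (adjusted p = 0.0237) and 0.34 ± 0.14 (adjusted p = 0.0333). The first call was lost without replicate 1 or 2 of the control or replicate 3 of the senescent IMP1088-treated cells (adjusted p = 0.0753, 0.0784 and 0.0765). The second was lost without replicate 2 or 3 of the control or replicate 1 or 2 of the senescent DDD86481-treated cells (adjusted p = 0.211, 0.0544, 0.0774 and 0.0602).

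TRIB3, a pseudokinase induced by ATF4 and CHOP that dampens ATF4 activity and AKT signalling, rose with senescence and with the inhibitors. Control cells with DMSO had 21.4, 28.2 and 23.2 CPM and senescent cells with DMSO had 137, 165 and 143 CPM, which is 6.1-fold higher (2.61 ± 0.19, adjusted p = 1.62e-10). In control cells IMP1088 gave 85.8, 78.4 and 118 CPM (1.95 ± 0.19, adjusted p = 1.7e-07) and DDD86481 gave 123, 64.3 and 103 CPM (1.99 ± 0.19, adjusted p = 1.37e-07). Both changes ranked 76th among the 14341 genes. Inhibitor-treated control cells lay above the DMSO control cells and below every senescent library.

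In senescent cells the fold change was smaller. IMP1088 gave 213, 224 and 217 CPM of TRIB3 (0.56 ± 0.18, adjusted p = 0.0139) and DDD86481 gave 252, 206 and 206 CPM (0.58 ± 0.18, adjusted p = 0.0112), in ranges that did not overlap DMSO. The first call was lost without replicate 1 of the senescent DMSO cells (0.50, adjusted p = 0.0576) and the second without replicate 1 of the senescent DDD86481-treated cells (0.48, adjusted p = 0.0594). Senescent cells exceeded control cells by 1.21 ± 0.18 with IMP1088 (adjusted p = 4.08e-06) and by 1.20 ± 0.18 with DDD86481 (adjusted p = 4.71e-06). Without replicate 2 of the DDD86481-treated control cells, its lowest library, the DDD86481 change in control cells was 2.21 ± 0.16 (adjusted p = 2.64e-08).

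CHAC1 encodes an enzyme that breaks down glutathione and is a target of ATF4, ATF3 and CHOP. It rose with senescence and was called with neither inhibitor. Control cells had 16.4, 9.58 and 18.4 CPM with DMSO, 13.7, 8.51 and 18.5 CPM with IMP1088, and 23.5, 7.67 and 15.4 CPM with DDD86481, in overlapping ranges (-0.12 ± 0.30, adjusted p = 0.778, and 0.08 ± 0.29, adjusted p = 0.863). Senescent cells with DMSO had 87.3, 97.9 and 83.2 CPM, 6.07-fold more than control cells (2.60 ± 0.29, adjusted p = 1.29e-07).

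In senescent cells the CHAC1 level was below DMSO with IMP1088, at 66.9, 58.4 and 57.7 CPM, and with DDD86481, at 67.2, 54.6 and 48.1 CPM. These ranges did not overlap that of DMSO, yet in the fit of all 18 libraries the differences did not pass the threshold (-0.55 ± 0.27, adjusted p = 0.106, and -0.66 ± 0.27, adjusted p = 0.057). In fits of only the groups compared both were called lower (-0.52, adjusted p = 1.35e-05, and -0.62, adjusted p = 0.000516). Without the low-count filter both were also called lower. The DDD86481 difference was called lower with upper quartile scaling and with the replicate block too. RLE scaling and DESeq2 called neither. The SD of CHAC1 was 4.63 to 7.9 CPM at group means of 13.6 to 15.5 CPM in control cells and 5.13 to 9.7 CPM at means of 56.6 to 89.5 CPM in senescent cells. Senescent cells exceeded control cells by 2.17 ± 0.29 with IMP1088 (adjusted p = 1.35e-06) and by 1.87 ± 0.29 with DDD86481 (adjusted p = 8.51e-06).

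NUPR1, a small chromatin-associated stress protein induced with ATF4 and CHOP, went the other way with senescence. Control cells with DMSO had 102, 112 and 137 CPM and senescent cells with DMSO had 2.35, 3.74 and 3.24 CPM, 37.5-fold less (-5.23 ± 0.16, adjusted p = 1.99e-16). This was the 177th lowest fold change of the 14341 genes. IMP1088 brought the senescent libraries to 7.79, 10.1 and 6.73 CPM (1.40 ± 0.17, adjusted p = 1.92e-06) and DDD86481 to 7.92, 8.67 and 8.03 CPM (1.40 ± 0.17, adjusted p = 1.98e-06). All 6 were above the DMSO libraries and below every control library.

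In control cells NUPR1 stood at 106, 104 and 106 CPM with IMP1088 and at 108, 110 and 102 CPM with DDD86481, in ranges that overlapped that of DMSO, and neither change was called (-0.15 ± 0.12, adjusted p = 0.374, and -0.13 ± 0.12, adjusted p = 0.415). Senescent cells remained lower than control cells by 12.9-fold with IMP1088 (-3.69 ± 0.14, adjusted p = 7.15e-15) and by 13-fold with DDD86481 (-3.70 ± 0.14, adjusted p = 7.1e-15).

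SESN2 encodes sestrin 2, a target of ATF4 and of p53 that restrains mTORC1. Its groups overlapped in every comparison with DMSO. Control cells with DMSO had 45.2, 29.7 and 31.7 CPM and senescent cells with DMSO had 27.3, 45.1 and 33.2 CPM (-0.02 ± 0.20, adjusted p = 0.945). In control cells DDD86481 gave 65.1, 39 and 49.5 CPM (0.53 ± 0.19, adjusted p = 0.0386) and IMP1088 gave 56.2, 37 and 52.1 CPM (0.44 ± 0.19, adjusted p = 0.0825). The DDD86481 call was lost without replicate 2 or 3 of the DMSO control cells (adjusted p = 0.148 and 0.103) and without replicate 1 or 3 of the DDD86481-treated ones (0.245 and 0.0658). The IMP1088 change passed without replicate 1 of the DMSO control cells (0.66, adjusted p = 0.0101) and without replicate 2 of the IMP1088-treated ones (0.61, adjusted p = 0.0284).

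Senescent cells had 49.4, 47.8 and 44.8 CPM of SESN2 with IMP1088 (0.43 ± 0.20, adjusted p = 0.0825) and 41.9, 44.3 and 42.8 CPM with DDD86481 (0.29 ± 0.20, adjusted p = 0.247). IMP1088 passed without replicate 2 of the senescent DMSO cells, the highest of that group (0.64, adjusted p = 0.0187). Senescent and control cells at the same inhibitor differed by -0.03 ± 0.19 with IMP1088 (adjusted p = 0.882) and by -0.25 ± 0.19 with DDD86481 (adjusted p = 0.243).

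Whether the log2 fold change with an inhibitor differed between senescent and control cells was tested as an interaction term. For IMP1088, 2 members were called higher and 1 lower (12.1% and 14.2% of all genes tested), and for DDD86481 also 2 and 1 (14.4% and 15.9%). ATF4 rose more in senescent cells, by 0.98 ± 0.19 with IMP1088 (adjusted p = 0.00104) and by 0.99 ± 0.19 with DDD86481 (adjusted p = 0.000927). NUPR1 was called higher in senescent cells only, and its effects differed by 1.55 ± 0.21 (adjusted p = 3.22e-05) and 1.53 ± 0.21 (adjusted p = 3.45e-05). That rise of NUPR1 was from a mean of 3.11 to 8.21 CPM with either inhibitor, against 117 CPM in control cells with DMSO. TRIB3 rose by a smaller fold in senescent cells, with differences of -1.40 ± 0.25 (adjusted p = 0.000541) and -1.41 ± 0.25 (adjusted p = 0.000475). In CPM its steps were about equal in both states. Mean TRIB3 went from 24.3 to 94.1 and 96.6 CPM in control cells. In senescent cells it went from 148 to 218 and 222 CPM. The calls of ATF4, NUPR1 and TRIB3 held in all 12 fits that left out 1 library and with the replicate block, for both inhibitors.

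No difference between states passed for the other 7 members with either inhibitor. DDIT3, raised in both, differed by -0.02 ± 0.28 with IMP1088 (adjusted p = 0.961) and by -0.29 ± 0.28 with DDD86481 (adjusted p = 0.452), and CEBPB by -0.34 ± 0.20 (adjusted p = 0.212) and -0.12 ± 0.20 (adjusted p = 0.668). CHAC1 differed by -0.43 ± 0.40 (adjusted p = 0.454) and -0.74 ± 0.40 (adjusted p = 0.17). The DDD86481 value passed without replicate 2 of the DDD86481-treated control cells (-1.01, adjusted p = 0.0358). Without the low-count filter, the interaction with DDD86481 gave 2 members lower in place of 1. ATF3 differed by 0.42 ± 0.37 and 0.60 ± 0.37 (adjusted p = 0.429 and 0.231).

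**Figure D3:**
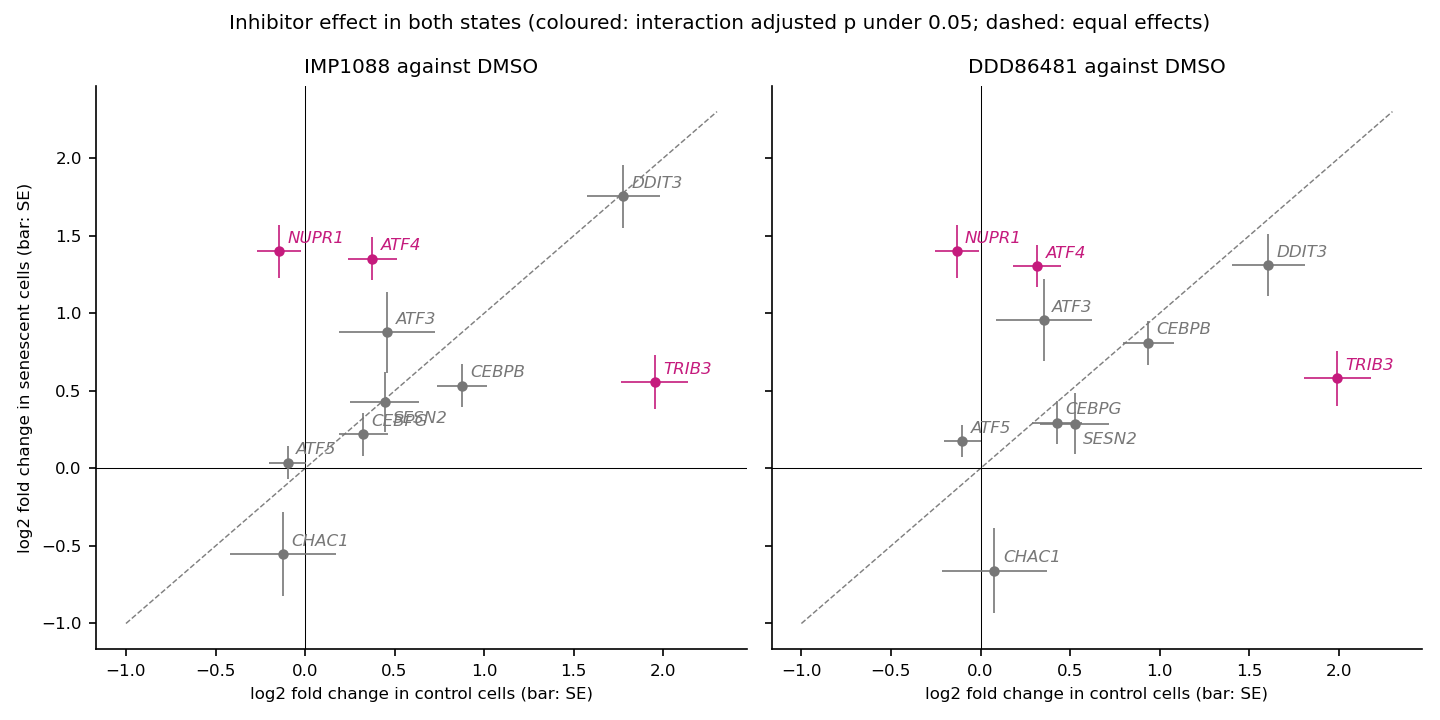
Log2 fold change of each gene with an inhibitor against DMSO in control cells (horizontal) and in senescent cells (vertical), with SE bars and a dashed line of equal effects, and the genes with an interaction past the threshold in colour. ATF4 and NUPR1 lie above the line and TRIB3 below it with both inhibitors, while DDIT3 lies within its error bars of the line with IMP1088.

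Within groups, several members varied together from library to library. After the group means were taken out, the correlation of log2 CPM over the 18 libraries had a median of 0.37 over the 45 pairs of members. It was highest for CEBPG with TRIB3 (r = 0.86), DDIT3 with CHAC1 (r = 0.83), ATF3 with CEBPG (r = 0.80), CEBPG with CHAC1 (r = 0.75) and ATF4 with NUPR1 (r = 0.72). CEBPB stood out, with a median of -0.03 and a range of -0.30 to 0.26 over its 9 pairs, against a median of 0.47 over the 36 pairs without it. The points share a library, its depth and its scaling, so these values describe the libraries and carry no test.

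**Figure D4:**
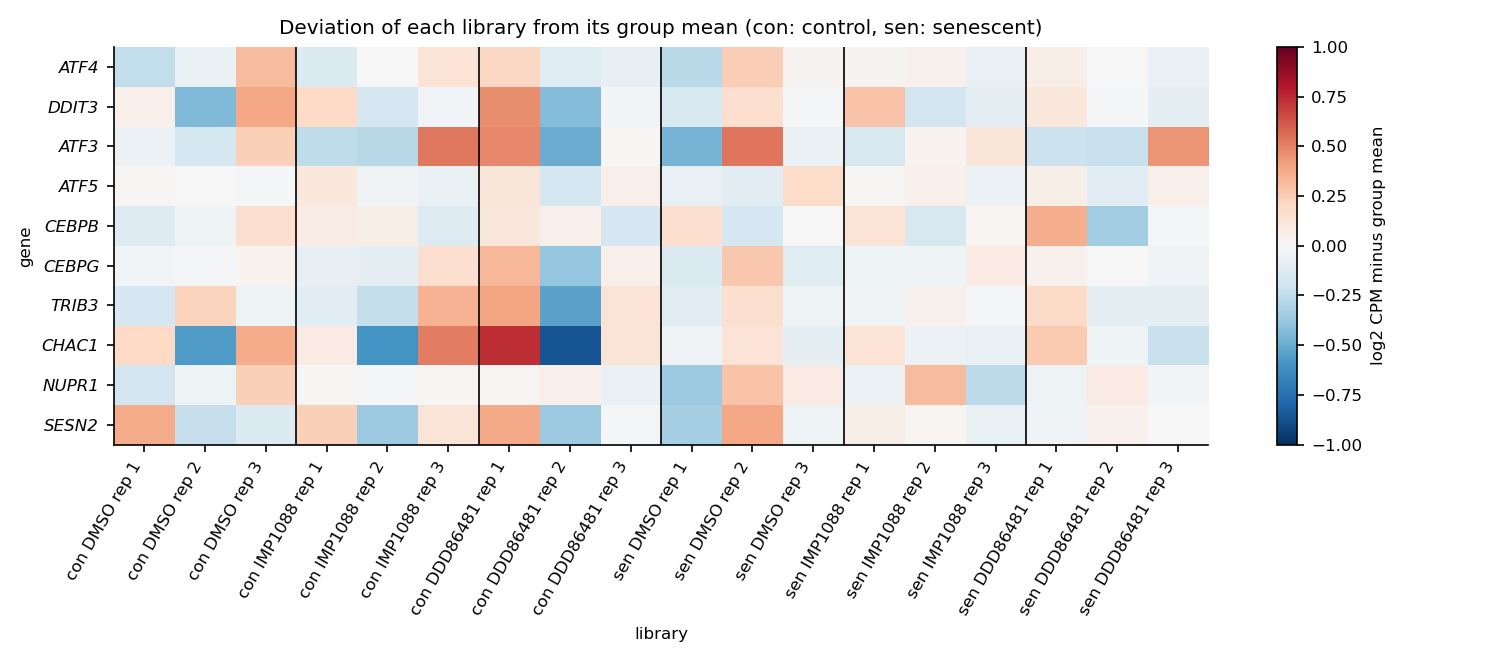
Log2 CPM of each gene in each library minus the mean of its group, with red for higher and blue for lower, and lines between groups. Replicates 1 and 2 of the DDD86481-treated control cells lie on opposite sides of their mean for most genes, CHAC1 the most.

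Other genes of the network were counted from lists, first those upstream and beside ATF4. Counts of every list are to be read against the shares of all genes tested. These were 32.5% higher and 36% lower in senescence with DMSO. For IMP1088 they were 16.3% and 17.4% in control cells and 20.6% and 23.9% in senescent cells. For DDD86481 they were 17.8% and 18.7% in control cells and 20.1% and 23.1% in senescent cells. Of 8 eIF2α kinase and phosphatase genes (such as EIF2AK3, encoding the stress sensor PERK, and PPP1R15A, a regulatory subunit of the phosphatase), 4 were higher and 1 lower in senescence with DMSO, 4 and 1 with either inhibitor in control cells, and 4 and 0 with IMP1088 and 5 and 1 with DDD86481 in senescent cells. Of 13 further bZIP partners, 4 were higher and 6 lower in senescence, 6 and 3 with IMP1088 and 6 and 2 with DDD86481 in control cells, and 7 and 3 and 7 and 2 in senescent cells. FOSB, an AP-1 subunit, rose most of all listed genes in control cells, from 0.56, 0.97 and 0.80 CPM with DMSO to 16.7, 12.7 and 7.38 CPM with IMP1088 (3.97 ± 0.48, adjusted p = 3.12e-06) and 21.8, 10.1 and 4.3 CPM with DDD86481 (3.94 ± 0.48, adjusted p = 3.77e-06). FOS, its relative, rose with both inhibitors in both states. In senescent cells it went from 5.8, 3.8 and 3.19 CPM with DMSO to 13.3, 14.9 and 13.8 CPM with IMP1088 (1.72 ± 0.51, adjusted p = 0.00923) and 22.2, 15.4 and 33.3 CPM with DDD86481 (2.47 ± 0.50, adjusted p = 0.000473). In control cells FOS went from 12.4, 12.8 and 9.85 CPM to 102, 83.2 and 35.5 CPM with IMP1088 (2.65 ± 0.44, adjusted p = 0.000118) and 133, 70.5 and 23.7 CPM with DDD86481 (2.69 ± 0.44, adjusted p = 0.000102).

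Lists of ATF4 targets in metabolism were counted next, to be read against the shares of all genes given above for each comparison. Of 10 amino acid synthesis genes tested, 1 was higher and 5 lower in senescence with DMSO (32.5% and 36% of all genes), with a median of -0.31. With IMP1088 2 were higher and 3 lower in control cells and 6 and 2 in senescent cells, and with DDD86481 3 and 3 and 5 and 1. Of 9 amino acid transporters, 2 were higher and 2 lower in senescence, 6 and 1 with IMP1088 and 7 and 1 with DDD86481 in control cells, and 3 and 0 with either in senescent cells. Of 13 tRNA synthetase and export genes, 12 were higher and 1 lower in senescence (median 0.54), 5 and 0 with either inhibitor in control cells and 4 and 1 with either in senescent cells.

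Of 9 secreted and signalling effectors tested, 5 were higher and 0 lower in senescence, 4 and 0 with either inhibitor in control cells and 4 and 3 with either in senescent cells. INHBE, the activin βE subunit gene, led them. It stood at 1.05, 0.85 and 1.09 CPM in control cells with DMSO, rose to 8.08, 6.24 and 8.21 CPM with IMP1088 (2.91 ± 0.41, adjusted p = 1.86e-05) and had 14.7, 3.87 and 6.78 CPM with DDD86481 (3.08 ± 0.41, adjusted p = 9.77e-06). Senescent cells had 0.062, 0.81 and 0.44 CPM with DMSO, of which the first lay under the floor, then 30.7, 36.8 and 40.1 CPM with IMP1088 (6.34 ± 0.46, adjusted p = 2.47e-09) and 23.3, 27 and 36.7 CPM with DDD86481 (6.03 ± 0.47, adjusted p = 5.98e-09). The inhibitor effect on INHBE was larger in senescent cells, by 3.43 ± 0.72 (adjusted p = 0.00181) and 2.95 ± 0.72 (adjusted p = 0.00515).

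Of 12 death and autophagy effectors of CHOP and ATF4, 5 were higher and 4 lower in senescence, 5 and 1 with IMP1088 and 6 and 1 with DDD86481 in control cells, and 4 and 3 with either in senescent cells. BCL2, a survival gene that CHOP is known to repress, fell with senescence from 3.75, 3.34 and 2.89 to 0.43, 0.62 and 0.44 CPM (-2.73 ± 0.30, adjusted p = 6.84e-08). BCL2L11, encoding the pro-death protein BIM, fell from 12.3, 9.9 and 7.07 to 1.85, 1.43 and 1.65 CPM (-2.57 ± 0.27, adjusted p = 5.41e-08). PMAIP1, encoding NOXA, fell with IMP1088 by 1.23 ± 0.16 on the log2 scale in control cells (adjusted p = 1.11e-05) and by 1.18 ± 0.16 in senescent cells (adjusted p = 5.86e-06). Mean PMAIP1 also fell with DDD86481, from 56 to 26.2 CPM in control cells and from 143 to 75.4 CPM in senescent cells. With the inhibitors present in both states, BCL2 and BCL2L11 were lower in senescent cells, at -4.44 ± 0.28 and -3.58 ± 0.27 with IMP1088 (adjusted p = 1.31e-11 and 2.07e-10) and -4.55 ± 0.28 and -3.62 ± 0.27 with DDD86481 (adjusted p = 8.7e-12 and 2.05e-10). In control cells both genes rose with the inhibitors. BCL2 reached 8.38, 9.44 and 8.79 CPM with IMP1088 (1.41 ± 0.20, adjusted p = 1.67e-05) and 8.61, 9.52 and 11.2 CPM with DDD86481 (1.55 ± 0.20, adjusted p = 6.26e-06), where DDIT3 also rose. These RNA data hold no measure of CHOP protein, and whether CHOP acted on BCL2 in these cells was not tested. The study separately reports that CHOP accumulated in senescent cells treated with NMT inhibitors. BCL2L11 reached mean levels of 18.7 and 18.9 CPM (0.93 ± 0.21, adjusted p = 0.00206, and 0.94 ± 0.21, adjusted p = 0.00185). In senescent cells neither gene was called with either inhibitor (BCL2 -0.30 ± 0.43 and -0.27 ± 0.43, BCL2L11 -0.08 ± 0.34 and -0.10 ± 0.34). BCL2 had at most 10 counts in a senescent library with DMSO and at most 11 with either inhibitor. Replicate 2 with DDD86481 stood at the floor (0.157 CPM), so fold changes of BCL2 that use senescent cells rest on few reads. The interaction of BCL2 was -1.71 ± 0.48 with IMP1088 (adjusted p = 0.013) and -1.82 ± 0.48 with DDD86481 (adjusted p = 0.00833).

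The ATF6 and XBP1 arm of the unfolded protein response supplies chaperones, and no gene of its list was called lower with an inhibitor in either state. Of its 18 genes, 8 were higher and 1 lower in senescence with DMSO, 12 and 0 with either inhibitor in control cells, and 16 and 0 with IMP1088 and 15 and 0 with DDD86481 in senescent cells, with medians of 0.21, 0.81, 0.78, 0.82 and 0.77 in that order. HERPUD1, which works in the removal of misfolded proteins from the endoplasmic reticulum, rose in senescent cells from 73.3, 80.2 and 73.2 CPM to 426, 390 and 369 CPM with IMP1088 (2.39 ± 0.14, adjusted p = 2.11e-10). With DDD86481 its mean level in senescent cells was 307 CPM. Mean levels in control cells were 82.3 CPM with DMSO, 258 CPM with IMP1088 and 259 CPM with DDD86481. HERPUD1 therefore rose in both states, from similar DMSO levels to higher mean levels in senescent cells. With DDD86481 the ranges of the states overlapped.

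Since SESN2 is also a p53 target and CEBPB drives secretory genes, both sets were counted. Of 10 p53 targets, 6 were higher and 4 lower in senescence, 1 and 1 with IMP1088 and 1 and 2 with DDD86481 in control cells, and 1 and 7 and 1 and 6 in senescent cells. TP53I3 fell in senescent cells with DDD86481, from 35.5, 44.4 and 43.1 to 19.1, 23 and 22.5 CPM (-0.93 ± 0.13, adjusted p = 1.1e-05). Its mean there was 23.6 CPM with IMP1088, against 41 CPM with DMSO. Of 12 secretory genes, 11 were higher and 1 lower in senescence, with a median of 7.58. IL1B, an inflammatory cytokine, rose from 0.81, 1.65 and 1.99 to 6831, 6300 and 6786 CPM (12.1 ± 0.21, adjusted p = 4.87e-20). CSF3, a granulocyte growth factor, was at or under the floor in all control libraries and stood at 248, 258 and 299 CPM in senescent cells with DMSO, at least 2060-fold higher than the control floor.

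With IMP1088 3 secretory genes were higher and 3 lower in control cells and 2 and 2 in senescent cells, and with DDD86481 3 and 3 and 3 and 2. CCL2, a chemokine, fell with IMP1088 in control cells from 93.8, 134 and 224 to 48.8, 55.7 and 103 CPM, in overlapping ranges (-1.12 ± 0.36, adjusted p = 0.0226), and with DDD86481 by about as much (-1.11 ± 0.36, adjusted p = 0.0214). In senescent cells it fell by 2.31 ± 0.41 with IMP1088 (adjusted p = 0.000134) and by 1.79 ± 0.40 with DDD86481 (adjusted p = 0.00116) on the log2 scale. IL6 fell in control cells with DDD86481 (-1.18 ± 0.30, adjusted p = 0.00462). Its mean there was 10.8 CPM with IMP1088 against 23.3 CPM with DMSO, in overlapping ranges. The IL6 response differed between states, by 1.38 ± 0.40 with IMP1088 (adjusted p = 0.0146) and 1.69 ± 0.40 with DDD86481 (adjusted p = 0.00388). GDF15 and CXCL8 stand in 2 lists each, and no list was tested as a set.

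**Figure D5:**
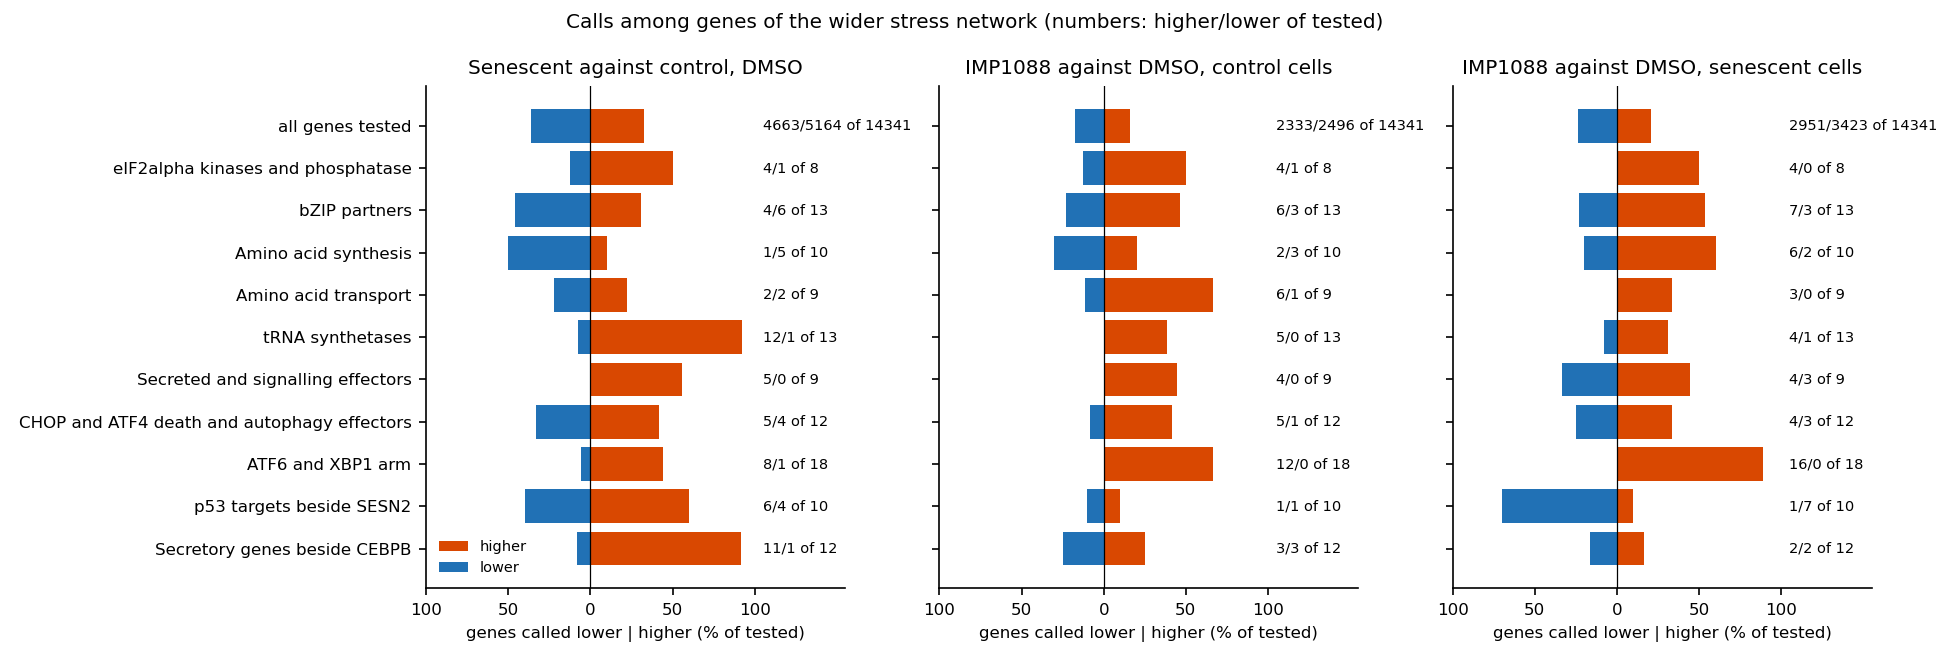
Share of the tested genes of each list called higher (right) or lower (left) in senescence with DMSO, and with IMP1088 in control and in senescent cells, with the counts beside the bars and all genes tested at the top. The ATF6 and XBP1 list had 16 of 18 genes higher and 0 lower with IMP1088 in senescent cells, and the secretory list 11 of 12 higher in senescence.

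For each member, the 3 genes outside the 10 whose log2 CPM followed it most closely over the 18 libraries were found among 11564 genes with a mean log2 CPM above 1. The libraries fall into the states of the cells and the r values mostly follow those, so they are a description with no test. They were KLHDC2 (r = 0.97), WDR46 and CXXC1 (r = 0.96 each) for ATF4, and EEF1AKMT4 (r = 0.97), TBL2 and PRKCSH (r = 0.96 each) for DDIT3. RNF41 and YKT6 (r = 0.91 each) and COPB2 (r = 0.90), a subunit gene of the COPI vesicle coat, were closest to ATF3. ATF5 had the weakest neighbours, DDX56 (r = 0.76), H2AX (r = 0.67) and ATAD3B (r = 0.63).

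CEBPB was followed by PIM3 (r = 0.97), CLCN7 (r = 0.95) and TBC1D17 (r = 0.95). CEBPG was followed by MTHFD2 (r = 0.94), a mitochondrial folate enzyme gene, SLC33A1 and DDX21 (r = 0.92 each). Closest to TRIB3 were SQLE, DAAM1 and SDE2 (r = 0.97 each), to CHAC1 GALNT18 (r = 0.98), COASY and DCUN1D3 (r = 0.97 each), to NUPR1 LUM, CASP1 and TMEM117 (r = 0.99 each), and to SESN2 NCBP1 (r = 0.90), ZNF599 (r = 0.85) and DDX31 (r = 0.83). LUM encodes lumican, a matrix protein of fibroblasts.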

How the data were processed

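Poly(A) RNA of 18 libraries in 6 groups of 3 was analysed from 1 deposited file of unnormalised counts, which the authors gave for each gene symbol and library. The authors' processing notes in the labels name hg38, DRAGEN, STAR 2.7.8a and DESeq2 1.32.0, whereas the study's methods name an older genome build and aligner, so the counting annotation and its strand setting are not settled here. Positions and promoters came from RefSeq on GRCh38.p14 (26986 of 28266 symbols matched, 95.5%), and exon overlaps from GENCODE on GRCh37, without coordinates (25055 symbols, 88.6%).

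Groups came from the labels. The study's legends count independent experiments as n, while the labels give only replicate numbers. No 2 libraries agreed within sampling noise. Of the rows, 6836 held no count. filterByExpr in edgeR 4.0.16 (R 4.3.3) kept 14341 genes with 99.962% of counts, scaled by TMM, and 1 quasi-likelihood fit of the 18 libraries gave 9 comparisons, adjusted by the Benjamini-Hochberg method within each (threshold 0.05). SE was derived from the F statistic, and log2 CPM had a prior count of 2. The fit was tested on simulated counts. Alternatives were RLE and upper quartile scaling, no filter, DESeq2 1.42.0, a replicate block, only the groups compared, and each library left out. Same-numbered libraries deviated together (r = 0.39, 0.12 and 0.23) only between IMP1088 and DMSO control cells, where the numbers were taken to pair them. The block changed no member's call there.

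The members and lists were chosen with earlier results of these data known. Text names all members, the 3 genes most like each, and the 2 highest and 2 lowest called list genes per comparison. Lists were eIF2α kinases and phosphatase, bZIP partners, amino acid synthesis, amino acid transport, tRNA synthetases, secreted effectors, death and autophagy effectors, the ATF6 and XBP1 arm, p53 targets, secretory genes and markers of 5 cell types.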

Additional observations from a re-analysis of the deposited data

Results flagged for a closer look

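The inhibitor effect on the log2 scale differed between senescent and control cells for 3 members with both compounds, by the interaction term in edgeR. ATF4 had a difference (effect in senescent minus effect in control cells) of 0.98 ± 0.19 with IMP1088 (adjusted p = 0.00104) and 0.99 ± 0.19 with DDD86481 (adjusted p = 0.000927). NUPR1 had 1.55 ± 0.21 (adjusted p = 3.22e-05) and 1.53 ± 0.21 (adjusted p = 3.45e-05), and TRIB3 had -1.40 ± 0.25 (adjusted p = 0.000541) and -1.41 ± 0.25 (adjusted p = 0.000475). For ATF4 the group means ran from 284 to 368 and 353 CPM in control cells, and from 178 to 454 and 439 CPM in senescent cells. Mean TRIB3 levels ran from 24.3 to 94.1 and 96.6 CPM in control cells and from 148 to 218 and 222 CPM in senescent cells. Senescent cells with DMSO thus already lay above inhibitor-treated control cells, and the steps in CPM were about equal in both states. Mean NUPR1 levels were 117, 106 and 107 CPM in control cells and 3.11, 8.21 and 8.21 CPM in senescent cells. Both compounds shared their DMSO libraries, so their results are not independent of each other.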

How the results depend on the processing

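Of 49 calls of members in the 9 comparisons, 38 kept direction and threshold in every alternative and none changed sign. Over all members, 1090 of 1200 alternative values kept direction and side of the threshold, 40 lost a call, 29 gained one and 41 changed sign, none of them of a called value. Upper quartile scaling moved the median of all genes by -0.15, -0.10 and -0.11 in senescence with DMSO, IMP1088 and DDD86481, and ended the calls of ATF4 and CEBPG in the last 2 (log2 fold changes 0.20 and 0.26, 0.21 and 0.23), of ATF4 with IMP1088 in control cells (0.32) and of SESN2 with DDD86481 in control cells (0.46).

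In fits of only the groups compared, IMP1088 gave 2716 calls over all genes in control cells against 4829, and DDD86481 gave 2842 against 5242 and 3 called members against 5. The cause was not tested. With DDD86481 in control cells, leaving out 1 library gave 3 to 5 called members.

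SESN2 in senescence with DMSO, uncalled at -0.02, became 0.0150 (DESeq2), 0.0142 (RLE scaling), 0.0140 (no filter), 0.00472 (only the groups compared) and 0.0128 with the replicate block. The interaction with IMP1088 changed sign for DDIT3 (0.00981 with only the groups compared, 0.0301 with upper quartile scaling) and SESN2 (0.0175 and 0.0335). The replicate block gave 7 members called in senescence with DMSO, 7 with IMP1088 and 8 with DDD86481, against 7, 8 and 7 without it, and in senescent cells 7 with DDD86481, where CHAC1 was called lower (-0.68). It moved no count of calls by over 1.5 times.

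Leaving out 1 library changed the sign of 32 values, which belonged to 13 uncalled results (a gene in a comparison). SESN2 ran from -0.23 to 0.20 in senescence with DMSO and from -0.19 to 0.0892 in senescence with IMP1088, where ATF5 ran from -0.0702 to 0.0255. ATF5 ran from -0.0164 to 0.13 with IMP1088 in senescent cells, and CHAC1 in control cells from -0.40 to 0.13 with IMP1088 and from -0.33 to 0.40 with DDD86481. Interactions with IMP1088 ran from -0.23 to 0.20 for DDIT3, -0.18 to 0.0388 for CEBPG and -0.23 to 0.20 for SESN2. Interactions with DDD86481 ran from -0.50 to 0.00308 for DDIT3, -0.33 to 0.0323 for CEBPB, -0.26 to 0.0811 for CEBPG and -0.45 to 0.00862 for SESN2.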
